A study of Mus musculus with 8 samples.

Results

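Transfer RNAs for alanine, valine, leucine and isoleucine were read from a small RNA sequencing table of mouse skin fibroblasts. The members are the genomic transfer RNA features whose name, after the hyphen, begins with Ala, Val, Leu or Ile, and the 3 letters that follow give the anticodon. The rule used names only, and it found 101 of the 423 genomic transfer RNA features, in a table of 2403 small RNA features. Ala had 34 copies, Leu 29, Val 21 and Ile 17, spread over 14 anticodons. The cells were immortalized fibroblasts from the skin of wild-type C57BL/6 mice (WT) or from mir210lox/lox mice, whose libraries are titled KO. Both genotypes were kept for 24 h at 21% O2 (normoxia) or at 1% O2 (hypoxia), which gave 4 groups of 2 libraries, 8 in all. The genotype label names a floxed allele and does not itself state a deletion or the enzyme that made it, nor whether the immortalized cells of a genotype were 1 clone. The labels name no separate cultures for the 2 libraries of a group, and p-values therefore reflect the spread of these 8 samples alone, possibly a technical one.

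A transfer RNA carries 1 amino acid to the ribosome and pairs with codons of the messenger RNA through its anticodon. Alanine, valine, leucine and isoleucine are each served by several anticodons, and many of the anticodons by several gene copies, which RNA polymerase III transcribes from promoter boxes inside the gene. Isoacceptors are transfer RNAs for the same amino acid with different anticodons, and isodecoders share the anticodon and differ elsewhere in the body. The adenine at the first anticodon position is usually read after deamination to inosine, and in the nucleus some genes, among them those for leucine with CAA and isoleucine with TAT, carry an intron that is spliced out. Under stress, transfer RNAs can be cut near the anticodon into fragments that are found in small RNA libraries. The table gives no read lengths or positions, so whole transfer RNAs, precursors and fragments cannot be told apart here, nor can more RNA per cell and more cells.

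Library totals lay between 8618630 and 12167438 normalized read counts. Mature miR-210-3p, the microRNA that the genotype concerns, stood at 4786 to 39011 in the WT libraries and at 10 to 32 in the KO libraries. The 7 mesenchymal microRNA markers were all listed and summed to 2678397 to 4204409 per library. The epithelial list held 95 to 281 in all, the endothelial list 102 to 191, the haematopoietic list 832 to 3044, the muscle list 114 to 275 and the neural and melanocyte list 51 to 101. In the last 2 lists 2 of 3 markers were listed, and no listed marker was at 0 in every library. Ribosomal RNA, most of it in the 5S row n-R5s194, took 5.76% of library 1 of KO hypoxia and 1.69% to 2.88% of the others. Its part in the results below was not tested.

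The sequence listed for a feature holds the gene and 1 flanking base on each side, and the named anticodon was found in all 101, with its first base at position 33 to 35 of the gene body. Coordinates are printed as the table lists them. No source used here gives their build or strand, and only 2 of the 101 spans overlapped a transfer RNA gene of the GRCm38 RefSeq annotation, which lists 430. The sequences that the results below turn on are shown 5′ to 3′, as deposited, with the anticodon in capitals. The first set holds the most abundant copy of the family, its nearest ValAAC relative and the leading ValCAC copy, which lie at chr13:22107659-22107732, chr3:30500191-30500264 and chr13:23399497-23399570.
chr13.tRNA974-ValAAC: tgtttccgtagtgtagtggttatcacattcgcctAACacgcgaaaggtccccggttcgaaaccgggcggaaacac
chr3.tRNA48-ValAAC: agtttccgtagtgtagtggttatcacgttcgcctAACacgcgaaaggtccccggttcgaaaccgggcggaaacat
chr13.tRNA98-ValCAC: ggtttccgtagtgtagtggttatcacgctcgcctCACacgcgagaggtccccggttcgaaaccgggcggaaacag
The second set shows 2 AlaTGC copies with the same body and different flanking bases, and an AlaCGC copy that differs from them by C33T (AlaCGC base first, counted from 1 at the first base of the body). They lie at chr5:125884619-125884691, chr11:48647930-48648002 and chr13:21346088-21346160.
chr5.tRNA1317-AlaTGC: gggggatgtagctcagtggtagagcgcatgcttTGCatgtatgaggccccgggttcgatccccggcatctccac
chr11.tRNA2022-AlaTGC: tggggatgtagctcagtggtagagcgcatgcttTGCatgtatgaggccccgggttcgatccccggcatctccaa
chr13.tRNA70-AlaCGC: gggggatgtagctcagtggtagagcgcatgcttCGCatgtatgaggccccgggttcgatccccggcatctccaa
The third set pairs features whose body is nearer to a transfer RNA of another amino acid with that relative, because the named and the nearest amino acid differ. The AlaCGC feature lies at chr4:131681173-131681245 and the GluCTC feature at chr7:106692409-106692481. The LeuAAG feature shown is 1 of 3 identical windows, at chr16:3449837-3449909, and the ProAGG feature lies at chr1:78294369-78294441. The IleTAT feature lies at chr1:155305793-155305866 and the ValTAC feature at chr19:12086420-12086493.
chr4.tRNA626-AlaCGC: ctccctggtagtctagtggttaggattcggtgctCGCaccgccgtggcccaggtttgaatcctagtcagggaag
chr7.tRNA967-GluCTC: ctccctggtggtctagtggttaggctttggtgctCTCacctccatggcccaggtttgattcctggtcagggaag
chr16.tRNA4-LeuAAG: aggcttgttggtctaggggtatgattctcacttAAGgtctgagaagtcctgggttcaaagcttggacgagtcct
chr1.tRNA284-ProAGG: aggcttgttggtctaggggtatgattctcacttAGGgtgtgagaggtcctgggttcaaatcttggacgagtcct
chr1.tRNA583-IleTAT: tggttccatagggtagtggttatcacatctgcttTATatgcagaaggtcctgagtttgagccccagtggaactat
chr19.tRNA109-ValTAC: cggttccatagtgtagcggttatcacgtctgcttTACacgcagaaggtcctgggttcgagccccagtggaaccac
The last set gives the leading copies of 3 other anticodons for comparison, 2 of them with the longer bodies of the LeuCAA and IleTAT genes. They lie at chr11:58115975-58116082, chr13:21988806-21988900 and chr1:173031968-173032051.
chr11.tRNA1911-LeuCAA: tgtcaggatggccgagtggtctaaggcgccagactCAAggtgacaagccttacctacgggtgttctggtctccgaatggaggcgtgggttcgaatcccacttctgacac
chr13.tRNA987-IleTAT: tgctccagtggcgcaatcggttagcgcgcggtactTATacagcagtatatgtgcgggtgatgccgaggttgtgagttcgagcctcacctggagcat
chr1.tRNA993-LeuCAG: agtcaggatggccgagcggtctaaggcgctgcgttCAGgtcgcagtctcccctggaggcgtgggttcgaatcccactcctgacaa

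Together the 101 features held 197903 to 297461 normalized counts per library, or 1.72% to 2.88% of the library. They made up 32.3% and 33.6% of all genomic transfer RNA counts in normoxic WT cells, 29.9% and 26.5% in hypoxic WT cells, 24.5% and 26.2% in normoxic KO cells and 21.6% and 23.4% in hypoxic KO cells. Each of the 4 KO libraries thus lay below each of the 4 WT libraries in this share, which was not tested, while the members' own counts overlapped between the genotypes. The denominator, all genomic transfer RNAs, took 6.49% to 7.74% of the WT libraries and 7.60% to 11.0% of the KO libraries. How many other groups of features separate in this way was not counted. Counts were very uneven between the amino acids: Val held 79.8% of the members' counts, Leu 9.89%, Ala 8.29% and Ile 1.97%. Per base of gene body, since the bodies run from 72 to 107 bases, the shares were 81.2%, 8.54%, 8.53% and 1.73%. Leu and Ala were thus level per base of listed gene body. The divisor is the gene length with any intron, and read lengths are not given, so this may depend on it.

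**Figure D1:**
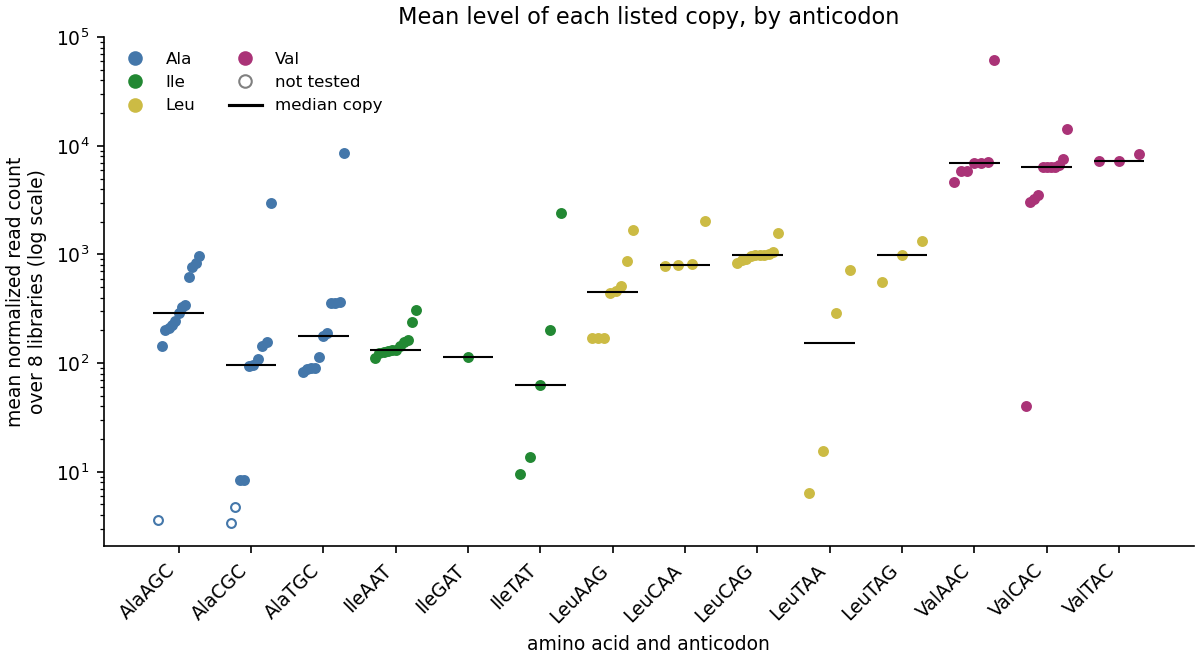
Mean normalized read count of each of the 101 features over the 8 libraries, on a log scale, grouped by amino acid and anticodon. Open circles are the 3 features that did not pass the filter on low values, and the bars mark the median copy. The ValAAC, AlaTGC, AlaCGC and IleTAT columns each have 1 copy far above the rest.

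A single valine transfer RNA was the most abundant member in every library. It is chr13.tRNA974-ValAAC, on chromosome 13, one of the 7 copies that read valine codons through the AAC anticodon. Its counts were 57932 and 88279 in normoxic WT cells, 52188 and 51703 in hypoxic WT cells, 50278 and 80779 in normoxic KO cells, and 62301 and 50657 in hypoxic KO cells. The normoxia library numbered 2 was the highest in both genotypes, WT normoxia lay above WT hypoxia, and the KO groups overlapped. This copy alone held 62.4% of the ValAAC counts and 23.5% to 29.9% of all members' counts. Its mean of 61765, or 846 per base, compared with 5826 for chr3.tRNA48-ValAAC and 5822 for chr11.tRNA208-ValAAC, from which its body differs by 1 substitution, A26G (its own base first). From the leading ValCAC copy, chr13.tRNA98-ValCAC with a mean of 14224, it differed by A26G, T27C, A34C and A43G, of which A34C is the anticodon change.

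The other valine copies lay well below it. The remaining 6 ValAAC copies had means between 4627 and 7071, and the 3 ValTAC copies between 7234 and 8440, with chr19.tRNA109-ValTAC the highest. Of the 11 ValCAC copies 10 lay between 3034 and 14224, and only chr13.tRNA964-ValCAC stood apart, with a mean of 40.5. Its body differs from the leading ValAAC copy at 12 positions. Summed over copies, ValAAC held 93855 and 142232 in normoxic WT cells, 87228 and 86211 in hypoxic WT cells, 79075 and 132017 in normoxic KO cells, and 93578 and 77889 in hypoxic KO cells. ValCAC held 60574 and 92184, 60669 and 58975, 49745 and 86502, and 52793 and 48923 in the same order. Both sums were highest in the 2 normoxia libraries numbered 2. ValTAC held 22764 and 22288, 24952 and 21772, 21091 and 28349, and 17396 and 24754, with library 2 of KO normoxia the highest and library 2 of WT normoxia within the range of the rest.

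**Figure D2:**
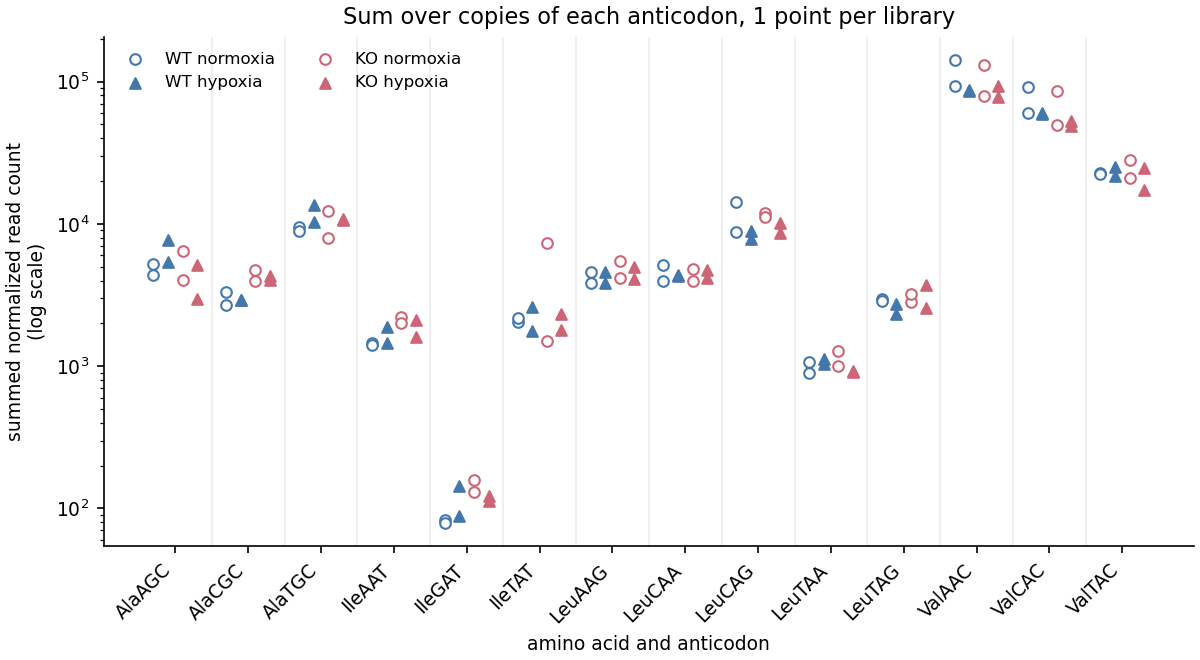
Summed normalized read count of each anticodon in each of the 8 libraries, on a log scale, with circles for normoxia, triangles for hypoxia, blue for WT and red for KO. The normoxia libraries numbered 2 stand above the others in ValAAC and ValCAC, and library 2 of KO normoxia, at 7353, in IleTAT. AlaCGC is the only column in which all 4 KO points lie above all 4 WT points.

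Alanine counts came mostly from 1 TGC copy and, under the CGC name, from 1 copy that resembles a glutamate transfer RNA. The AlaTGC copy chr5.tRNA1317-AlaTGC held 7775 and 7278 in normoxic WT cells, 11134 and 8179 in hypoxic WT cells, 10280 and 6164 in normoxic KO cells, and 9594 and 8302 in hypoxic KO cells. It was 81.8% of the AlaTGC sum, which ran from 7952 in library 2 of KO normoxia to 13537 in library 1 of WT hypoxia. The other 10 AlaTGC copies had means of 83.5 to 362. AlaAGC, whose adenine is the base usually converted to inosine, was spread over 13 copies with means of 3.62 to 959.9. The highest of these, chr13.tRNA71-AlaAGC, held 1260 and 952 in normoxic WT cells, 1421 and 1223 in hypoxic WT cells, 1106 and 514 in normoxic KO cells, and 371 and 832 in hypoxic KO cells. Its 2 lowest libraries were library 2 of KO normoxia and library 1 of KO hypoxia. The AlaAGC sum was 5237 and 4373 in normoxic WT cells, 7670 and 5443 in hypoxic WT cells, 6477 and 4032 in normoxic KO cells, and 2987 and 5184 in hypoxic KO cells. Library 1 of WT hypoxia was the highest and library 1 of KO hypoxia, the library with the most ribosomal RNA, the lowest.

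Leucine counts were spread over several copies of each anticodon except LeuTAA. The 10 LeuCAG copies had means between 827 and 1561, the highest being chr1.tRNA993-LeuCAG, which took only 15.3% of the sum. LeuCAG summed to 14238 and 8732 in normoxic WT cells, 8931 and 7865 in hypoxic WT cells, 11868 and 11165 in normoxic KO cells, and 8630 and 10126 in hypoxic KO cells. Library 1 of WT normoxia was the highest of the 8 libraries. The leading LeuAAG copy was chr13.tRNA63-LeuAAG, with a mean of 1664 and 37.3% of the sum, and the leading LeuCAA copy chr11.tRNA1911-LeuCAA, with a mean of 2044 and 46.1%. LeuAAG summed to 3824 to 5518, LeuCAA to 3947 to 5105, and LeuTAG, led by chr7.tRNA861-LeuTAG with a mean of 1343, to 2345 to 3709. LeuTAA was the lowest leucine anticodon, at 896 to 1278 per library, and chr10.tRNA1316-LeuTAA made up 69.98% of it. In these last 4 sums the highest library was at most 1.58 times the lowest, against 1.59 to 4.85 times in the other anticodons.

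Isoleucine was the lowest of the 4 amino acids. The 11 IleAAT copies had means of 111 to 311. Their sum was 1449 and 1401 in normoxic WT cells, 1872 and 1449 in hypoxic WT cells, 2224 and 2011 in normoxic KO cells, and 2123 and 1609 in hypoxic KO cells. Of the 4 KO values 3 lay above every WT value. IleGAT has 1 copy, chr2.tRNA1506-IleGAT, which held 83 and 79, 144 and 89, 158 and 131, and 122 and 112 in the same order. IleTAT, an intron-containing gene group, was carried by chr13.tRNA987-IleTAT, with 1731 and 1887 in normoxic WT cells, 1415 and 2284 in hypoxic WT cells, 1290 and 7092 in normoxic KO cells, and 1512 and 2073 in hypoxic KO cells. Library 2 of KO normoxia was the only one above 2284. The second highest IleTAT copy, chr7.tRNA156-IleTAT, did not share that value: it held 217 and 209, 254 and 266, 152 and 155, and 185 and 167, with every KO library below every WT library.

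The filter on low values left out 3 features. It asked for at least 10 in at least 2 libraries. Left out were chr4.tRNA645-AlaAGC with a mean of 3.62, chrX.tRNA364-AlaCGC with 4.75 and chrX.tRNA636-AlaCGC with 3.38. The last was listed at 1 and 2 in normoxic WT cells, at 0 in both WT hypoxia libraries, at 7 and 11 in normoxic KO cells and at 3 and 3 in hypoxic KO cells. Just inside the filter were chrX.tRNA462-LeuTAA with a mean of 6.38, chrX.tRNA639-AlaCGC and chrX.tRNA640-AlaCGC with 8.38 each, and chr1.tRNA583-IleTAT with 9.62. The other 98 features passed, and statements on tests below cover these 98.

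Copies are not independent measurements. The 101 features have 83 distinct windows and 65 distinct bodies. Of the windows, 11 are shared by 29 features, and in 3 of these the copies have the same value in every library, while in the other 8 they do not, although the listed letters do not differ. The widest gap was between chrX.tRNA369-AlaCGC, with a mean of 96.2, and chrX.tRNA639-AlaCGC and chrX.tRNA640-AlaCGC, with 8.38 each (11.5-fold). Next came chrX.tRNA371-AlaTGC at 362 against chrX.tRNA637-AlaTGC at 83.5 (4.33-fold). Where only the flanking bases differed, chr5.tRNA1317-AlaTGC stood 48.4-fold above chr11.tRNA2022-AlaTGC, which held 135 to 245 per library, and chr13.tRNA67-AlaAGC stood 5.88-fold above chr13.tRNA66-AlaAGC. In contrast, the 5 ValCAC copies with a shared body lay within 1.04-fold of each other. How reads that match several copies were assigned is not given in the sources at hand, and its part in these gaps was not tested. Of the members 37 lie on chromosome 13 and 15 on the X chromosome.

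Of the members 9 carried a body nearer to a transfer RNA of another amino acid, and 5 of these were far from their own. A body's identity was the share of the longer sequence matched in a global alignment, taken to the nearest body with different letters. Limits of under 70% to the own amino acid and over 85% to another, which set the 5 apart, were chosen after the values were seen. The remaining 96 features had at least 76.7% identity to their own amino acid. The 5 were chr4.tRNA626-AlaCGC (56.9% to alanine, 88.9% to chr7.tRNA967-GluCTC), chr1.tRNA583-IleTAT (63.5% to isoleucine, 89.0% to chr19.tRNA109-ValTAC) and the identical chr16.tRNA4-LeuAAG, chr16.tRNA829-LeuAAG and chr19.tRNA2-LeuAAG (57.3% to leucine, 94.4% to chr1.tRNA284-ProAGG). Counted from the first base of the body, with the relative's base first, the LeuAAG features differ from ProAGG by G34A, G38C, G44A and T59G. The other 4 of the 9 were the following: the 3 ValTAC copies are nearer to chr1.tRNA583-IleTAT than to other valine bodies, and chr13.tRNA991-LeuTAA is 95.2% identical to chr13.tRNA79-SupTTA, a suppressor transfer RNA in the list.

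**Figure D3:**
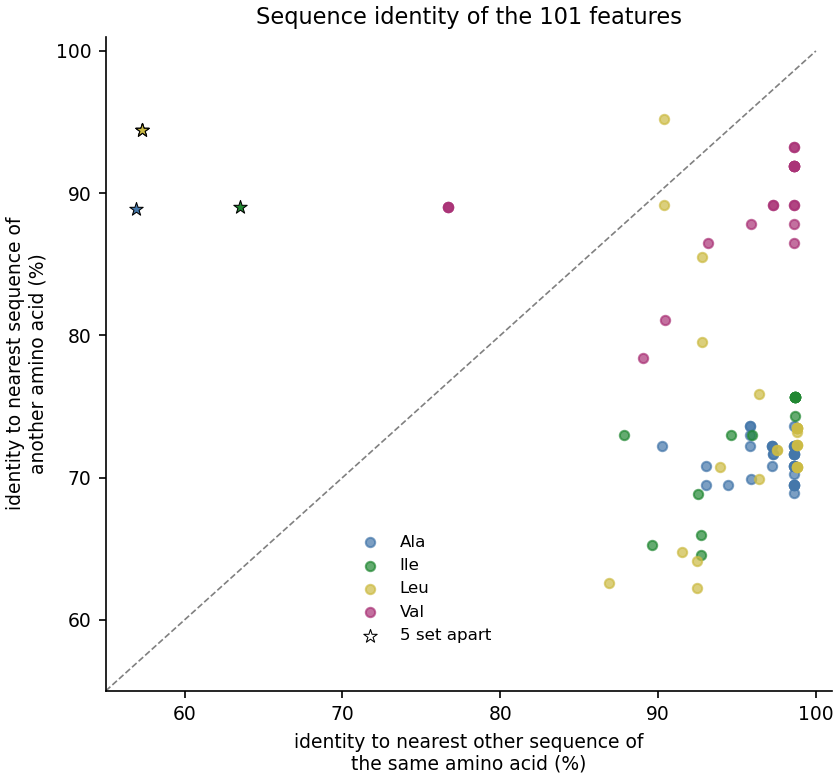
Identity of each of the 101 gene bodies to the nearest different body of its own amino acid (x axis, percent) and to the nearest body of any other amino acid (y axis, percent). The dashed line marks equality. The 5 features with stars, 3 of which coincide, lie at the upper left, with 56.9% to 63.5% identity to their own amino acid.

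The values of these features stood close to those of the relative in 2 of the 3 cases. The LeuAAG features held 203 and 194 in normoxic WT cells, 138 and 148 in hypoxic WT cells, 255 and 136 in normoxic KO cells, and 181 and 107 in hypoxic KO cells. ProAGG held 204 and 196, 139 and 148, 257 and 136, and 183 and 108 in the same order, so the 3 LeuAAG features were at 98.9% to 100% of it. Without these 3 features the LeuAAG sum was 3242 to 4753 per library, against 3824 to 5518 with them. The feature chr4.tRNA626-AlaCGC held 2188 and 2792 in normoxic WT cells, 2226 and 2242 in hypoxic WT cells, 3290 and 4087 in normoxic KO cells, and 3824 and 3305 in hypoxic KO cells. GluCTC held 2909 and 3472, 2965 and 3027, 4449 and 5293, and 4589 and 4442. Both were higher in each KO library than in any WT library, and the AlaCGC feature was at 73.9% to 83.3% of GluCTC. The IleTAT feature held only 5 to 14 per library, against 6145 to 10964 for ValTAC.

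This bears on the AlaCGC sum, of which chr4.tRNA626-AlaCGC was 82.8%. The sum over all 10 copies was 2710 and 3328 in normoxic WT cells, 2934 and 2928 in hypoxic WT cells, 3957 and 4774 in normoxic KO cells, and 4274 and 4041 in hypoxic KO cells. It was the only 1 of the 14 anticodon sums whose 4 KO libraries all lay above the 4 WT libraries. In the table in which transfer RNA rows of 1 anticodon are summed, 5.77% of the rows did the same. Without chr4.tRNA626-AlaCGC the other 9 copies summed to 522 and 536 in normoxic WT cells, 708 and 686 in hypoxic WT cells, 667 and 687 in normoxic KO cells, and 450 and 736 in hypoxic KO cells. The genotypes then overlapped, and library 1 of KO hypoxia was the lowest library.

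**Figure D4:**
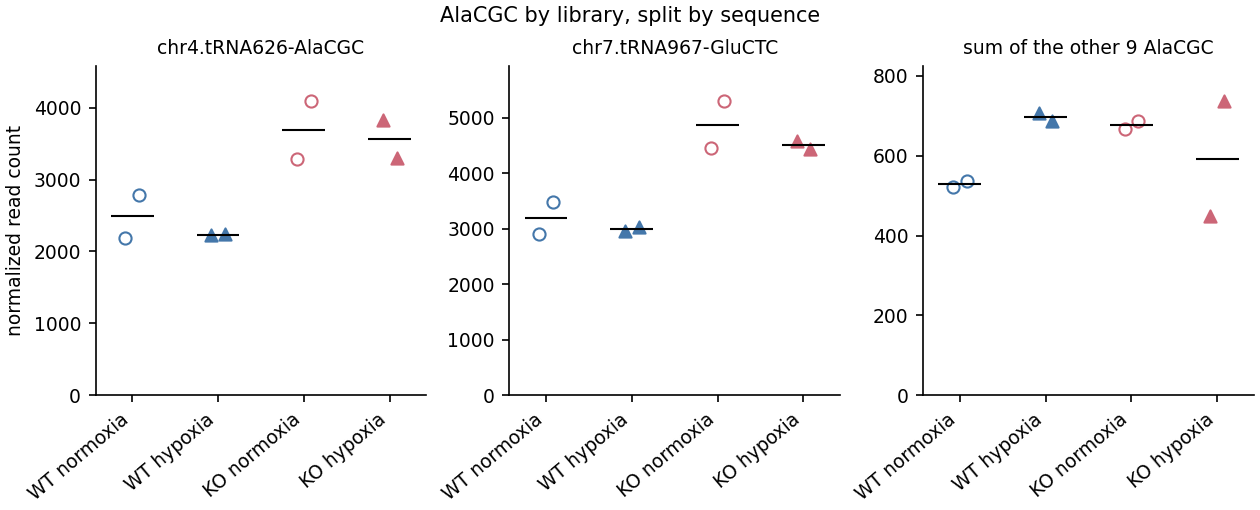
Normalized read count by library of chr4.tRNA626-AlaCGC, of its nearest relative chr7.tRNA967-GluCTC and of the other 9 AlaCGC copies summed, each on its own axis from 0. Black bars are means of the 2 libraries of a group. KO lies above WT in the first 2 panels, at 3290 or more against 2792 or less in the first, and the genotypes overlap in the third.

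In WT cells most alanine and isoleucine copies had higher means in hypoxia and most valine and leucine copies lower ones. None passed the test. The signs held under each of the 4 other scalings tried. Those scalings put the median over all features between -0.045 and 0.054, a shift too small to turn medians of the size given below. Differences are of log2 of the normalized count plus 1, and limma fitted 4 group means to all 1540 features tested, with Benjamini-Hochberg adjustment over them and a threshold of 0.05. Among the members 0 passed, and none had an unadjusted p under 0.05, where 0% of all features passed and 1.30% had such a p. The 31 Ala copies tested had a median difference of 0.39, with 28 above 0, and the 17 Ile copies a median of 0.22, with 15 above 0. Without library 1 of WT hypoxia these medians were 0.21 for Ala and 0.085 for Ile. The 21 Val copies had a median of -0.33, with 17 below 0, and the 29 Leu copies -0.32, with 23 below 0, while the median over all features was 0.016. The Val median was -0.013 without library 2 of WT normoxia, and the Leu median was -0.084 without library 1 of WT normoxia. The 3 members with the smallest p in limma were chr13.tRNA952-LeuCAG, at -0.52 ± 0.30 (SE), chr8.tRNA1008-LeuCAG, at -0.51 ± 0.30, and chr13.tRNA67-AlaAGC, at 0.66 ± 0.40, each with an adjusted p of 1. The last held 865 and 540 in normoxic WT cells and 1250 and 930 in hypoxic WT cells, and the higher WT normoxia value lay below both WT hypoxia values. The first, chr13.tRNA952-LeuCAG, held 1215 and 759 in normoxic WT cells and 734 and 608 in hypoxic WT cells. The second, chr8.tRNA1008-LeuCAG, held 1236 and 781 and then 758 and 627, and in both copies the hypoxia values were the 2 lower ones. In 51 of the 98 members the 2 hypoxia libraries lay both above or both below the 2 normoxia libraries, or 52.0% beside 25.8% of all features, and among the members many copies share sequence. All 10 LeuCAG copies were below 0, with a median of -0.44 that was -0.13 without library 1 of WT normoxia. They have only 4 distinct bodies. Of the leucine sums, LeuCAG differed by -0.41, LeuTAG by -0.21, LeuCAA by -0.049, LeuAAG by 0.0064 and LeuTAA by 0.14.

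In KO cells the copies of all 4 amino acids had medians below 0 in hypoxia, and none passed. All 98 members missed the threshold and none had an unadjusted p under 0.05 in limma, against 0% and 5.39% of all features. Of the members 82 were lower and 16 higher, with a median of -0.30 beside 0.016 over all features and -0.12 over the 315 other genomic transfer RNAs. Medians were -0.34 for Ala, -0.38 for Val, -0.25 for Leu and -0.13 for Ile, and stayed below 0 under the 4 other scalings. The alanine sums were mixed: AlaAGC differed by -0.38, AlaCGC by -0.065 and AlaTGC, the largest of them, by 0.11. The Ala median was 0.061 without library 1 of KO hypoxia, the Ile median 0.067 without library 2 of KO hypoxia and the Leu median -0.0043 without library 1 of KO normoxia. The Val median was -0.0041 without library 2 of KO normoxia and -0.78 without library 1 of KO normoxia. The smallest p belonged to chr13.tRNA968-IleAAT, which held 375 and 292 in normoxic KO cells and 265 and 187 in hypoxic KO cells, a difference of -0.57 ± 0.30 with a limma adjusted p of 0.804. Next were chr10.tRNA1316-LeuTAA, at -0.48 ± 0.27, with 712 and 939 against 612 and 558, and chr3.tRNA1026-LeuCAG, at -0.63 ± 0.40, with 1251 and 876 against 600 and 757. In all 3 both hypoxia values lay below both normoxia values. Groups without overlap, in either direction, were found in 21 members, or 21.4%, beside 28.9% of all features, so the separation is no result about these copies.

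The sums gave the same count: 0 of 14 anticodons passed in WT and 0 of 14 in KO in the summed table, where limma called 0% of 1178 rows in both contrasts and no sum had an unadjusted p under 0.05. In WT the smallest p values belonged to IleGAT, at 0.48 (95% interval -0.27 to 1.23), LeuCAG, at -0.41 (-1.07 to 0.25), and ValAAC, at -0.41 (-1.14 to 0.31). In KO they belonged to IleTAT, at -0.72 (-2.08 to 0.65), LeuTAA, at -0.30 (-0.90 to 0.30), and ValCAC, at -0.37 (-1.10 to 0.37). Single libraries set much of these values: IleGAT in WT was 0.13 without library 1 of WT hypoxia, LeuCAG in WT was -0.059 without library 1 of WT normoxia and ValAAC in WT was -0.11 without library 2 of WT normoxia. Without library 2 of KO normoxia, IleTAT was 0.42, LeuTAA -0.13 and ValCAC 0.031 in KO. The intervals are wide, so a missed threshold does not show equal levels. Averaged over both genotypes, hypoxia called 0 members and 0 sums, with 0% of all features and rows. A single member, chr3.tRNA1026-LeuCAG at -0.64 ± 0.28, had an unadjusted p under 0.05 in limma (0.0482, adjusted 0.975), as did 3.57% of all features. All 10 LeuCAG copies were below 0 in this mean, with a median of -0.37 that was -0.22 without library 1 of WT normoxia, and were so under each scaling. No member had its 4 hypoxia libraries all above or all below its 4 normoxia libraries, which 0.519% and 0.714% of all features did.

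**Figure D5:**
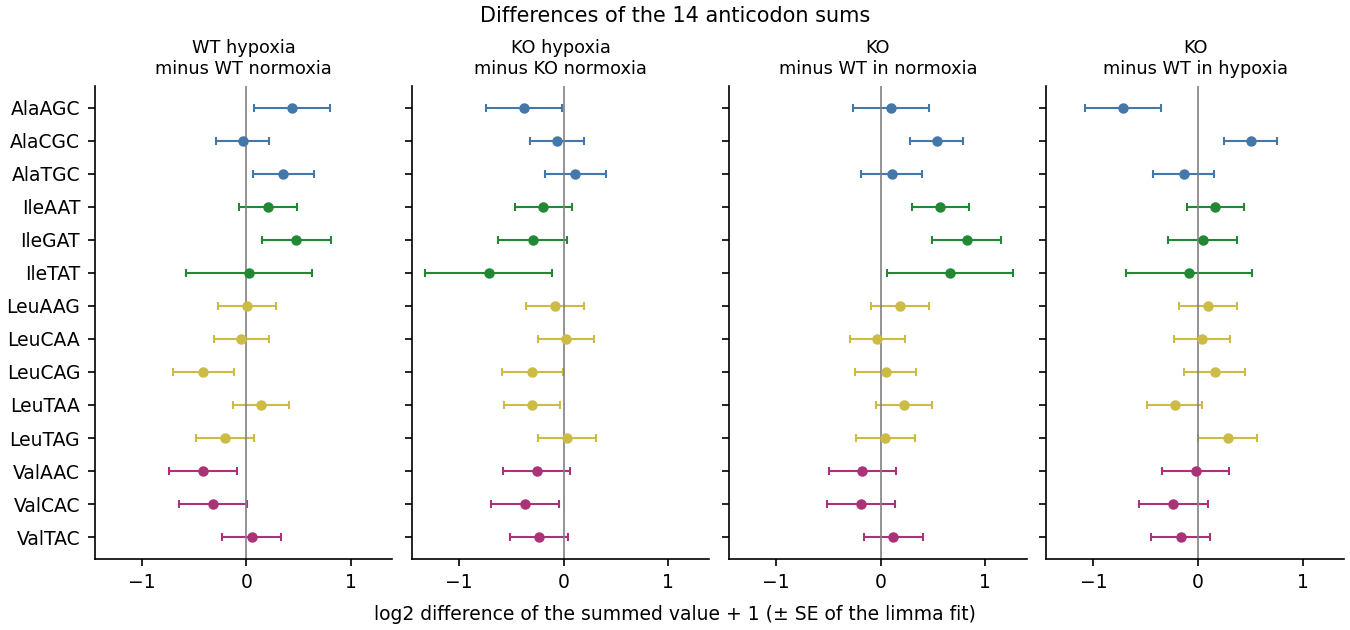
Log2 differences of the 14 anticodon sums (points) with their standard errors from limma (bars), in the 4 pairwise comparisons. AlaCGC lies above 0 in both comparisons of KO with WT, at 0.53 and 0.50. No difference passed the threshold.

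KO cells were then compared with WT cells at each oxygen level. In normoxia 0 members passed in limma, with 0.0649% of all features called, and 6 members had an unadjusted p under 0.05, all higher in KO, which is 6.12% of the members beside 13.4% of all features. Isoleucine had the highest median of the 4 amino acids, at 0.55, and 4 of its 5 IleTAT copies were below 0. All 11 IleAAT copies were above 0, with a median of 0.56, and were so under each of the 4 other scalings, with medians from 0.27 to 0.80. These copies have only 4 distinct bodies, and 8 share 1 body, so they are not separate measurements. Over all features the median was -0.064, which scaling to the microRNA total moved to 0.17 and scaling to the genomic transfer RNA total to -0.35, and over the 315 other genomic transfer RNAs it was 0.45, with 241 higher. The 3 smallest p values belonged to chr13.tRNA968-IleAAT, with 178 and 197 in WT and 375 and 292 in KO, to chr2.tRNA1506-IleGAT, with 83 and 79 and then 158 and 131, and to chr4.tRNA62-IleAAT, with 90 and 86 and then 154 and 141. Their differences were 0.82 ± 0.30, 0.82 ± 0.33 and 0.74 ± 0.31, with limma adjusted p of 0.324, 0.324 and 0.331. In all 3 the KO normoxia libraries lay above the WT normoxia libraries. Of the members 29, or 29.6%, had groups that did not overlap in either direction, beside 41.9% of all features. Ala copies had a median of 0.22, with 30 of 31 above 0, which became -0.076, with 12 above 0, when each library was scaled to its genomic transfer RNA total. Val copies had a median of -0.17, with 17 of 21 below 0, which became 0.066 when scaled to the microRNA total and 0.21 without library 1 of KO normoxia.

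In hypoxia 0 members passed in limma, with 0.130% of all features called, and 2 had an unadjusted p under 0.05, or 2.04% beside 9.03% of all features. The first was chr13.tRNA71-AlaAGC, with 1421 and 1223 in WT and 371 and 832 in KO, a difference of -1.24 ± 0.45 with an adjusted p of 0.511 in limma. It was -0.66 without library 1 of KO hypoxia and -1.83 without library 2 of KO hypoxia. The other was chr4.tRNA626-AlaCGC, with 2226 and 2242 and then 3824 and 3305, a difference of 0.67 ± 0.27 with an adjusted p of 0.545. The third smallest p was that of chr19.tRNA8-AlaAGC, with 487 and 367 and then 218 and 325, at -0.67 ± 0.31 (limma adjusted p 0.552). The 2 libraries of 1 genotype lay both above or both below those of the other in all 3, in 41 members (41.8%) and in 35.8% of all features. All 12 AlaAGC copies were lower in KO, with a median of -0.63, and all stayed lower under the 4 other scalings. Their median was -0.32 without library 1 of KO hypoxia and -0.95 without library 2 of KO hypoxia. All 11 AlaTGC copies were lower too, with a median of -0.56, but 2 were higher when scaled to the microRNA total and the median was 0.091 without library 1 of KO hypoxia. The AlaTGC sum, 81.8% of it in chr5.tRNA1317-AlaTGC, differed by only -0.14 ± 0.29. Over the other genomic transfer RNAs the median was 0.13. Among the 14 sums limma called 0 in normoxia and 0 in hypoxia, in tables where 0.0849% and 0.170% of rows were called, and only IleGAT in normoxia had an unadjusted p under 0.05 (0.0346, adjusted 0.398).

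Over both oxygen levels, 4 KO libraries stood against 4 WT libraries. No member passed in the limma mean of the genotype differences, with 0.130% of all features called, nor did any sum, with 0.170% of rows. An unadjusted p under 0.05 was found for 8 members, 6 higher and 2 lower, or 8.16% beside 17.8% of all features. The smallest belonged to chr4.tRNA626-AlaCGC, the copy nearest to glutamate, at 0.62 ± 0.19 with an adjusted p of 0.146 in limma. Next came chr13.tRNA71-AlaAGC, at -0.89 ± 0.32 (adjusted p 0.192), and chrX.tRNA639-AlaCGC, at 1.16 ± 0.42 (adjusted p 0.197), which held 4 and 6 in normoxic WT cells, 3 and 6 in hypoxic WT cells, 13 and 17 in normoxic KO cells and 11 and 7 in hypoxic KO cells. At these low values the difference depends on the pseudocount and was 0.63 with a pseudocount of 8. Its identical copy chrX.tRNA640-AlaCGC has the same values, and chrX.tRNA369-AlaCGC, with the same letters, held 79 and 89, 119 and 100, 105 and 111, and 46 and 121, so its genotypes overlapped. The AlaCGC sum differed by 0.52 ± 0.18 (limma adjusted p 0.196), and by 0.040 without chr4.tRNA626-AlaCGC.

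In 3 members, or 3.06% of those tested, all KO libraries lay above all WT libraries, beside 8.38% of all features: chr4.tRNA626-AlaCGC, chrX.tRNA639-AlaCGC and chrX.tRNA640-AlaCGC. In 1 member, chr7.tRNA156-IleTAT, all KO libraries lay below, or 1.02% beside 3.51%. Its difference was -0.52 ± 0.19, with an adjusted p of 0.199 in limma. All 21 Val copies had a mean genotype difference below 0, with a median of -0.21, but 8 of them were above 0 when scaled to the microRNA total and 4 with TMM factors, and the median was -0.016 without library 1 of KO normoxia. All 11 IleAAT copies, with only 4 distinct bodies, were above 0, with a median of 0.38. When scaled to the genomic transfer RNA total 10 of 11 were so, with a median of 0.11. Among the 315 other genomic transfer RNAs 224 were higher, with a median of 0.25, and 83 had an unadjusted p under 0.05 and were higher. Shares near or below those of all features are no result about the members.

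The change with hypoxia was also compared between the genotypes, as the KO change minus the WT change. No member and no sum passed, with 0% of features and rows called, and no member had an unadjusted p under 0.05 in limma, beside 2.40% of all features. The 3 smallest p values all belonged to AlaAGC copies: chr5.tRNA110-AlaAGC at -1.10 ± 0.54, chr13.tRNA966-AlaAGC at -1.15 ± 0.57 and chr19.tRNA8-AlaAGC at -0.74 ± 0.43, each with a limma adjusted p of 1. Counts of chr5.tRNA110-AlaAGC were 544 and 517 in normoxic WT cells, 930 and 666 in hypoxic WT cells, 838 and 499 in normoxic KO cells, and 327 and 613 in hypoxic KO cells. Those of chr13.tRNA966-AlaAGC were 653 and 540, 1148 and 685, 1141 and 714, and 435 and 847. In both copies WT hypoxia lay above WT normoxia and library 1 of KO hypoxia was the lowest library. All 12 AlaAGC copies were below 0 under each scaling, with a median of -0.71 that was -0.39 without library 1 of KO hypoxia, beside -0.26 for the other genomic transfer RNAs. The sign was not particular to AlaAGC. All 11 AlaTGC copies (median -0.69), 7 of 8 AlaCGC copies (-0.55) and all 11 IleAAT copies (-0.40) were below 0. Without library 1 of KO hypoxia the AlaTGC median was -0.20 and the AlaCGC median -0.25. The sums of these 2 anticodons, each carried mostly by 1 copy, differed less, by -0.24 for AlaTGC and -0.030 for AlaCGC. Of the Leu copies 20 of 29 were above 0.

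The mitochondrial transfer RNAs for the same amino acids are encoded by another genome and transcribed by another polymerase. All 5 were listed, mt-Ta at 260 to 472 per library, mt-Ti at 485 to 701, mt-Tl1 at 5807 to 11352, mt-Tl2 at 196 to 983 and mt-Tv at 3683 to 6278. None passed in any of the 7 comparisons. Their median difference with hypoxia was -0.18 in WT and -0.23 in KO, and for KO against WT it was 0.0087 in normoxia and -0.13 in hypoxia. Of the other RNA polymerase III products, 8 listed 5S ribosomal RNA rows could be tested, and Rn7sk, Rpph1, Vaultrc5 and Rnu6-ps2 held at most 6 in any library. None of the 8 was called in any comparison. Whether these rows share sequence or reads was not examined, so they may not be separate measurements. Their median difference with hypoxia was 0.24 in WT and 0.70 in KO, and for KO against WT it was 0.44 in normoxia and 0.98 in hypoxia. In the last of these, 6 of the 8 rows were higher in KO and 5 had an unadjusted p under 0.05 in limma, 4 higher and 1 lower, or 62.5% beside 9.03% of all features. That median was 0.53 without library 1 of KO hypoxia and 0.74 to 1.13 under the 4 other scalings, and the KO hypoxia median of 0.70 was 0.33 without the same library. The most abundant of them, n-R5s194, held 538192 in library 1 of KO hypoxia and 175871 to 281624 in the other libraries. These counts are part of the ribosomal RNA share given above.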

How the data were processed

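Small RNA of 8 libraries of mouse skin fibroblasts was sequenced after extraction with the miRNeasy kit and library preparation with a NEBNext SOLiD set, per the labels' protocols. The authors deposited 1 table of normalized read counts rounded to whole numbers, as the table's own name and its values show, and these values are used as a score, not as raw counts. The aligner, the normalization, the genome build of the coordinates and the treatment of reads that match several copies were not given in the sources used here. Depth is known only as the normalized total per library, so no counting interval is given.

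Values were taken as log2(value + 1) for the 1540 features with at least 10 in at least 2 libraries, and fitted with limma 3.58.1 in R 4.3.3 as 4 group means with an intensity trend. For each of 7 contrasts p-values were Benjamini-Hochberg adjusted over all features, with a threshold of 0.05. A second table, with 1178 rows tested, held genomic transfer RNA rows summed by anticodon. Bodies were aligned with Biopython 1.88 under Python 3.11.15.

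Named are, for each anticodon, the highest copy and the sum, in each contrast the 3 members with the smallest p where none passed, copies at least 4-fold from others of the same sequence, and copies beside the filter. The highest IleAAT copy is not reported here. The relatives of other amino acids, chr7.tRNA156-IleTAT, the last ValCAC copy and the limits on identity were chosen after their values were seen. The members and lists were chosen with earlier results of these data known. Alternatives were other pseudocounts and filters, 4 other scalings (TMM factors, quantile normalization, the microRNA total and the genomic transfer RNA total), each library left out, a replicate block, no trend, only the groups of a contrast, and rows of identical values counted once, and after seeing the data 2 more: without library 2 of KO normoxia and library 1 of KO hypoxia together, and without the 5 members far from their own amino acid.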

Additional observations from a re-analysis of the deposited data

Results flagged for a closer look

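Each anticodon sum was examined for a library far from the other 3 of its genotype, taking normoxia and hypoxia together, which gave 28 sets of 4 libraries. A library stood out where its gap to the nearest value divided by the whole range was above Dixon's 95% critical value. Chance alone gives this in about 1 in 20 sets drawn from 1 population. Each set here mixed normoxia and hypoxia, so that rate need not hold. The rule was met in 7 of the 28 sets, which share libraries and are not independent. The share over all rows was not counted, so the number is no result about these sums.

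Valine sums stood out in the normoxia libraries numbered 2. The ValAAC sum of library 2 of WT normoxia was 142232, with a gap of 0.864 of the range, and its ValCAC sum was 92184, with a gap of 0.949. The ValCAC sum of library 2 of KO normoxia was 86502, with a gap of 0.897. The same KO library held an IleTAT sum of 7353, with a gap of 0.863, almost all of it in chr13.tRNA987-IleTAT. In library 1 of WT normoxia the LeuCAG sum was 14238, with a gap of 0.833. Library 1 of WT hypoxia stood out in IleAAT, at 1872 with a gap of 0.898, and in IleGAT, at 144 with a gap of 0.846.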

How the results depend on the processing

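No member and no anticodon sum was called in any of the 7 comparisons by limma, and the count stayed at 0 under each alternative run. With all 8 libraries kept, limma gave an unadjusted p under 0.05 for at most 10 of the 98 members. That was the mean genotype difference when scaled to the genomic transfer RNA total. The share of all features at that setting was not counted, so the number is no result about the members. Of the differences of named members and sums, 3 turned their direction under some alternative, all of them sums. With a mean of at least 50 asked for, or without library 2 of KO normoxia and library 1 of KO hypoxia together, chrX.tRNA639-AlaCGC was not tested. The IleTAT sum in KO hypoxia against KO normoxia ran from -1.86 to 0.42 with 1 library left out, positive without library 2 of KO normoxia, and was 0.61 without that library and also without library 1 of KO hypoxia. The ValCAC sum in the same comparison ran from -0.77 to 0.031, positive without library 2 of KO normoxia. The AlaCGC sum in KO against WT in hypoxia was -0.28 without the 5 members far from their own amino acid. The smallest adjusted p over the members, that of chr4.tRNA626-AlaCGC for the mean genotype difference, ran from 0.0576 to 0.532 over the alternatives.

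The replicate numbers were not taken as pairs. Deviations from the group means correlated between libraries of the same number at 0.15 to 0.55 over 1540 features and at -0.24 to 0.59 over the 98 members. A fit with a replicate block gave 0 calls, and under the block chr4.tRNA626-AlaCGC had a mean genotype difference of 0.62 with an adjusted p of 0.0576 and the AlaCGC sum an adjusted p of 0.0721. The 2 libraries a group and the unknown raw depth limit what could be detected.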
